A study of Mus musculus with 8 samples.

Results

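The genes examined were 10 that encode parts of the cytotoxic granule or are associated with type 1 regulatory T (Tr1) cells. They were *Gzma*, *Gzmb*, *Gzmk*, *Prf1*, *Nkg7*, *Ctsw*, *Fasl*, *Eomes*, *Runx3* and *Itga2*, chosen by their gene symbols, and all 10 were found among the 11233 genes of the deposited table. Their levels were taken from 8 bulk RNA-Seq libraries, 4 of CCR8+ and 4 of CCR8- conventional T (Tconv) cells, which were CD4+ and negative for *Foxp3* EGFP. The source was subcutaneous B16-F10 tumors, a melanoma line of the mouse, in *Foxp3* EGFP-DTR mice of both sexes aged 8 to 14 weeks. Their endogenous *Foxp3* gene drives both EGFP, which marks Treg cells for the sort, and a human receptor for diphtheria toxin (DTx), through which the toxin kills them. Mice of both groups carried the allele and received DTx, by the methods 4 injections of 1 μg between day 7 and day 13 after implantation, and the cells were taken on day 16 (the title of a supplementary table gives a later day). Treg cells were thus depleted in both groups, and no group with Treg cells enters the comparison. CCR8 is a chemokine receptor, and its presence on the cell surface separated the groups in the sort. Both groups carry the replicate numbers 1 to 4, which the study describes as biological replicates isolated on a single day, but no label says which libraries came from the same mouse, and p values measure the spread between these libraries.

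Cytotoxic lymphocytes kill by releasing granules that hold perforin, which forms pores in the membrane of the target cell, and granzymes, the serine proteases that then enter it. Killing is mostly the work of CD8 T cells and NK cells, but CD4 T cells can acquire the same machinery, commonly under the transcription factors RUNX3 and EOMES. Tr1 cells are CD4 T cells without FOXP3 that suppress through IL-10, and CD49b, the product of *Itga2*, EOMES and granzyme K have each been used to recognize such cells. The comparison addresses whether CCR8+ Tconv cells, which the study examined for suppressive function, differ in these transcripts from their CCR8- neighbors.

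Summed over the genes of the deposited table, the libraries held between 12067780 and 17802628 reads, as recovered from the deposited values. Taken as the limit of detection, 3 reads corresponded to between 2.21 and 3.42 normalized counts. A normalized count is the deposited value, a read count divided by 1 factor per library, and intervals of counting error do not apply to molecules here because the amplified reads carry no molecular identifiers. The sort was visible in *Ccr8*, which had between 1293 and 6214 normalized counts in CCR8- and between 6970.2 and 42508 in CCR8+ libraries. *Cd4* was read in all 8 libraries, at between 6365 and 9823 normalized counts in CCR8- and between 7611 and 9192 in CCR8+ cells. The libraries that stood apart were CCR8- replicate 1, with 242 genes at 0 despite 100 or more normalized counts in each of the other 7 libraries, CCR8+ replicate 1 with 44 such genes and CCR8+ replicate 3 with 36. The other 5 libraries had 0. A value of 0 in these libraries can thus stand beside clear levels in the others. For the 10 genes, differences that rest on these libraries are also given without them. Genes of the lists described later are given with all libraries only.

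CCR8+ Tconv cells had lower average log2 levels than CCR8- cells for 9 of the 10 genes, and no gene passed the test. For 4 of the 9, *Gzmb*, *Prf1*, *Nkg7* and *Ctsw*, the sign turned under at least 1 other setting, and the arithmetic mean of *Gzmb* was slightly higher in CCR8+ cells. The median log2 fold change of the 10 genes, CCR8+ over CCR8-, was -0.67, compared with 0.04 over all 11032 tested genes, of which 47.6% had a value below 0. Differences were tested with limma on log2(normalized count + 1) in genes whose mean over the 8 libraries reached 10, as it did for all 10 genes. On this scale the pseudocount shrinks differences between low values, while a single library at 0 can enlarge the difference of the group means. Limma called 0 of the 10 genes at an adjusted p under 0.05, and 0.00% of all tested genes. *Ccr8*, the gene of the sort marker, was not called either (log2 fold change 2.37, standard error 0.62, limma adjusted p = 0.8286). The lack of a call is thus no sign that a gene is equal in the groups. At an unadjusted p under 0.05 limma had 1 of the 10 genes, *Gzma*, against 5.09% of all tested genes. On recovered reads, edgeR called 0 of the 10 genes and 0.00% of all genes, with 1 of the 10 and 4.41% of all genes at an unadjusted p under 0.05. DESeq2 gave an adjusted p to 6 of the 10 genes and none to *Gzmk*, *Prf1*, *Eomes* and *Itga2*, and it called 0 of the 6 and 1.15% of all genes with an adjusted p. At an unadjusted p under 0.05 it had 1 of the 10 genes and 5.60% of all genes. With the replicate number as a block, DESeq2 called 0 of the 10 genes and 1.12% of all genes, with 4 of the 10 and 9.02% of all genes at an unadjusted p under 0.05. With the same block limma called 0 of the 10 genes and 0.00906% of all genes, with 3 of the 10 and 5.39% of all genes at an unadjusted p under 0.05. The CCR8+ library was the lower one in all 4 same-numbered pairs for 3 genes, *Nkg7*, *Fasl* and *Itga2*, where 8.10% of all tested genes did the same, and the higher one in all 4 for 0 genes, where 8.44% did so. It was the lower one in at least 3 of the 4 pairs for 8 genes, against 31.5% of all tested genes. The 4 CCR8+ and the 4 CCR8- libraries overlapped for all 10 genes, and 4.40% of all tested genes had groups that did not overlap. In bulk libraries, fewer cells that make a transcript and less of it per cell cannot be told apart.

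**Figure D1:**
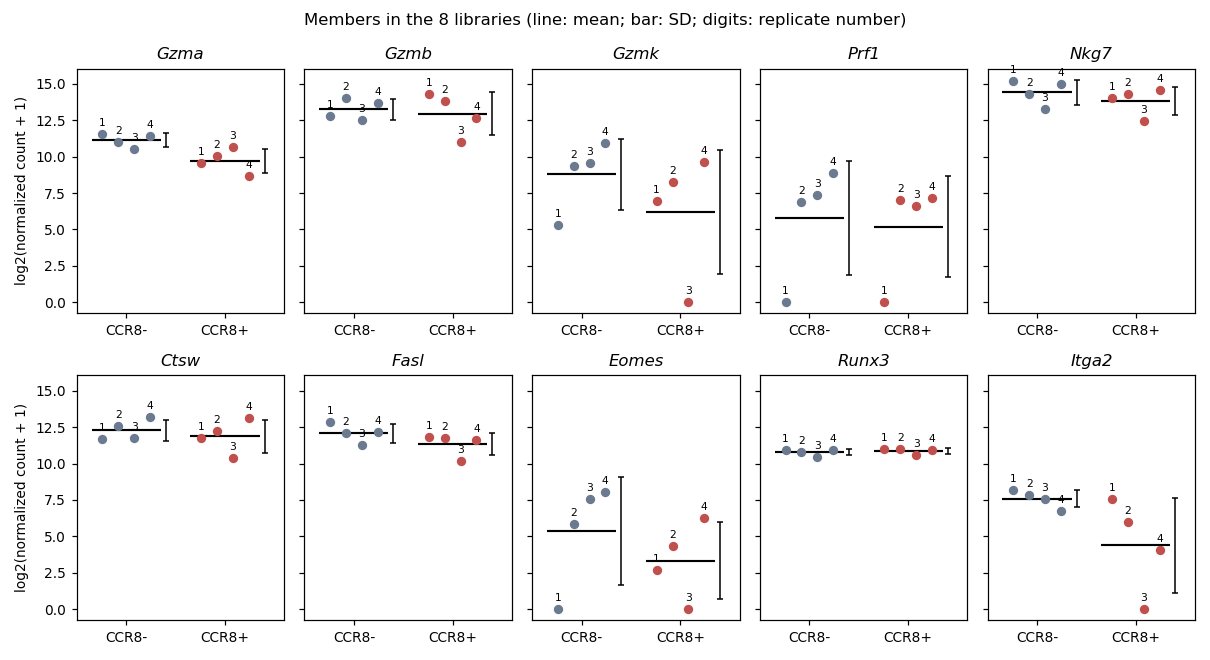
Level of each of the 10 genes, as log2(normalized count + 1), in the 4 CCR8- (grey) and 4 CCR8+ (red) libraries, with the replicate number above each point, the mean as a line and the SD as a bar. *Runx3* varies least among the 8 libraries, while *Gzmk*, *Prf1*, *Eomes* and *Itga2* each have at least 1 library at 0.

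Per length of transcript the genes spanned a wide range of levels. With the normalized counts divided by the exonic length in kilobases, *Nkg7* had the highest mean over the 8 libraries, 22682.5 per kb (range 6090.2 to 40349), and stood above *Gzmb* in 8 of 8 libraries. *Gzmb* followed with 7476 per kb (1407 to 13832), above *Ctsw* in 7 libraries. The next levels lay close together, at 2693 per kb for *Ctsw*, 1936 for *Fasl* and 1638 for *Gzma*, and their order held in 6 libraries for the first step and in 5 for the second. *Gzmk* (416 per kb) and *Runx3* (369) did not separate, since *Gzmk* was the higher in 4 of 8 libraries. *Prf1* had 54.2 per kb, *Itga2* 19.0 and *Eomes* 18.3, and the last pair did not separate either, with *Itga2* higher in 4 libraries. The pore-forming protein and the Tr1-associated factor were thus read at far lower levels than granzyme B in both groups.

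Granzyme A, encoded by *Gzma* (chromosome 13, 113093825 to 113100981 on GRCm38), is a protease that cuts after basic residues. *Gzma* had 3056.5, 2057, 1489 and 2775 normalized counts in CCR8- replicates 1 to 4 and 757, 1053, 1586 and 406 in CCR8+ replicates 1 to 4. The groups overlapped only through the libraries numbered 3, since CCR8+ replicate 3 was above CCR8- replicate 3 and every other CCR8+ library was below every CCR8- library. The means were 2344 ± 708 (SD, n = 4) and 950.4 ± 499.8 (SD, n = 4), which is 2.47-fold lower in CCR8+ cells. The log2 fold change was -1.41 (standard error 0.40) against an SD between libraries of 0.67, but limma, adjusted over all genes tested, gave an adjusted p of 0.8286 and the exact two-sided permutation p over the 70 assignments of the labels was 0.0571. With 4 libraries against 4, the smallest p such a test can give is 0.0286. By DESeq2, run on reads recovered from the deposited values, *Gzma* had an adjusted p of 0.104. The groups parted when either library numbered 3 was left out, an outcome that the values above fix in advance and that adds no support. They also did not overlap when all libraries were scaled to the same total. When libraries were left out, the log2 fold change of *Gzma* stayed between -1.92 and -0.96.

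*Gzmb* (chromosome 14, 56258838 to 56262260) encodes granzyme B, which cuts after aspartate and sets off apoptosis. It had 7041, 17018, 5840.25 and 12983 normalized counts in CCR8- replicates 1 to 4 and 19863, 14713, 2021 and 6402 in CCR8+ replicates 1 to 4. The highest and the lowest of the 8 values were both in CCR8+ libraries. The means were almost equal, at 10721 ± 5232 (SD, n = 4) for CCR8- cells and, for CCR8+ cells, 10749.7 ± 8038 (SD, n = 4). The log2 fold change of -0.32 (standard error 0.63) was smaller than the SD between libraries of 1.16 (limma adjusted p = 0.928, exact permutation p = 0.8). It was 0.34 without CCR8+ replicate 3 and -0.76 without CCR8+ replicate 1.

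*Gzmk* (chromosome 13, 113171608 to 113225908) encodes granzyme K, which shares the specificity of granzyme A for basic residues. Its values were 38.4, 649.7, 745 and 1972 normalized counts in CCR8- replicates 1 to 4, and 121, 301, 0 and 796 in CCR8+ replicates 1 to 4. In the CCR8- group replicate 1 was far below the others, and in the CCR8+ group replicate 3 was at 0, so both low values were in libraries that stood apart. The CCR8+ library was lower in pairs 2, 3 and 4 and higher in pair 1. The log2 fold change was -2.58 (standard error 1.89, limma adjusted p = 0.838, exact permutation p = 0.429). It was -0.51 without CCR8+ replicate 3 and -3.74 without CCR8- replicate 1, and with both left out, a choice made after seeing the data, it was -1.67. The size of this difference thus moved with both libraries.

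The stretches before the start sites of these 3 granzyme genes are shown because *Eomes* and *Runx3*, which encode a T-box and a RUNX factor, are among the 10 genes. Each line gives the 250 bases before the RefSeq start on the gene's strand (GRCm38.p6), with matches to the RUNX letters TGTGGT or their reverse ACCACA and to the T-box letters GTGTGA or their reverse TCACAC in capitals, the 2 motifs sharing no bases here.
Gzma, chr13:113100982-113101231, minus strand: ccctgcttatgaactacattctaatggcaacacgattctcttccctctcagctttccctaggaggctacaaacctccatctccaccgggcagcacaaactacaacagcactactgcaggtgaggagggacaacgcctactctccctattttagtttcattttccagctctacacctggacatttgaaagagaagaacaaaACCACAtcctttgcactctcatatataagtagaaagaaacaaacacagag
Gzmb, chr14:56262335-56262584, minus strand: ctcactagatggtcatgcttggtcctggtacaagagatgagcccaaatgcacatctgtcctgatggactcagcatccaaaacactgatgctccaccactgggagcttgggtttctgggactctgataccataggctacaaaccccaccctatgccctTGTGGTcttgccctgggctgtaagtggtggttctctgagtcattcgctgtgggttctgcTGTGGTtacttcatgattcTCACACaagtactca
Gzmk, chr13:113180966-113181215, minus strand: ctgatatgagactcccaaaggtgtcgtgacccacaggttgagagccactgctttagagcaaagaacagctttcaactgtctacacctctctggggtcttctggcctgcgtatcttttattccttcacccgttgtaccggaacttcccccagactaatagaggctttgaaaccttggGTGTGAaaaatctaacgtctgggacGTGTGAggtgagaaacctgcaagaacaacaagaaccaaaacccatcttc

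The 3 granzyme genes differed in these letters. *Gzma* had 1 RUNX match that began 50 bases before the start, *Gzmb* had 2, at 93 and 34 bases, and 1 T-box match at 15 bases, and *Gzmk* had 2 T-box matches, at 74 and 49 bases, and no RUNX match. Of 32817 RefSeq promoter windows of the same length, 14.04% held the RUNX letters, 12.3% the T-box letters and 2.05% both. Windows were found for 9 of the 10 genes, all but *Ctsw*, and 5 of these genes held the RUNX letters, 3 the T-box letters and 2 both. The 9 genes had 10 windows, and a gene was counted when any of its windows held the letters, while the percentages are per window. The *Gzmk* window lies inside the span given above for the gene, since GENCODE also lists a start further upstream. A match describes the letters only and does not show that a factor binds there.

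*Prf1* (chromosome 10, 61297833 to 61304680) encodes perforin. It had 0, 115, 164 and 474 normalized counts in CCR8- replicates 1 to 4 and 0, 131, 95.8 and 141 in CCR8+ replicates 1 to 4. The libraries numbered 1 were at 0 in both groups, and CCR8- replicate 4 was above all others. Over the 4 libraries of a group these values rest on 761 reads in CCR8- and 402 in CCR8+ cells. Its log2 fold change was -0.58 (standard error 2.20, limma adjusted p = 0.964, exact permutation p = 0.6). It turned to 0.45 without CCR8- replicate 4 and to 1.15 without CCR8+ replicate 1, and was -2.51 without CCR8- replicate 1. Without both libraries numbered 1 it was -0.78. No direction can thus be read for *Prf1*.

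*Nkg7* (chromosome 7, 43437073 to 43438249) encodes a membrane protein of the granule that promotes its release. Its normalized counts were 36879, 19996, 9842 and 32359.8 in CCR8- replicates 1 to 4 and 16950, 19890.4, 5566 and 24371 in CCR8+ replicates 1 to 4. The CCR8+ library was the lower one in all 4 pairs, but in pair 2 the log2 difference was only -0.01, and the 2 groups covered overlapping ranges. The means were 24769 ± 12246 (SD, n = 4) and 16694 ± 8022 (SD, n = 4), and the log2 fold change was -0.59 (standard error 0.51, exact permutation p = 0.429, limma adjusted p = 0.839). Without CCR8- replicate 1 and CCR8+ replicate 3 together, the log2 fold change of *Nkg7* was 0.12. *Ctsw* (chromosome 19, 5465043 to 5468507), which encodes cathepsin W, a cysteine protease of cytotoxic lymphocytes, had 3229.9, 6086, 3476 and 9381 normalized counts in CCR8- and 3446, 4716, 1319 and 8994 in CCR8+ replicates 1 to 4. Replicate 4 was the highest library of both groups, and the members of pairs 1 and 4 lay close together. On the log2 scale, the fold change of *Ctsw* was -0.43 (standard error 0.53, limma adjusted p = 0.872, exact permutation p = 0.571), and it was 0.066 without CCR8+ replicate 3.

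Fas ligand, encoded by *Fasl* (chromosome 1, 161780689 to 161788495), kills by engaging the death receptor Fas and needs no perforin. *Fasl* had 7426, 4295, 2488 and 4502 normalized counts in CCR8- replicates 1 to 4 and 3556, 3387, 1178 and 3162 in CCR8+ replicates 1 to 4. Within each group the library numbered 1 was the highest and the library numbered 3 the lowest, and the groups overlapped only through CCR8- replicate 3. The means were 4678 ± 2043 (SD, n = 4) and 2821 ± 1107 (SD, n = 4), which is 1.66-fold lower in CCR8+ cells. Its log2 fold change was -0.75 (standard error 0.40, limma adjusted p = 0.838, exact permutation p = 0.257). In the pairs the log2 differences of *Fasl* were -1.06, -0.34, -1.08 and -0.51, and the exact permutation p within the pairs, over 16 swaps, was 0.125, the smallest that this design allows. Without CCR8+ replicate 3 the log2 fold change was -0.37, and with CCR8- replicate 1 left out as well it was -0.11.

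**Figure D2:**
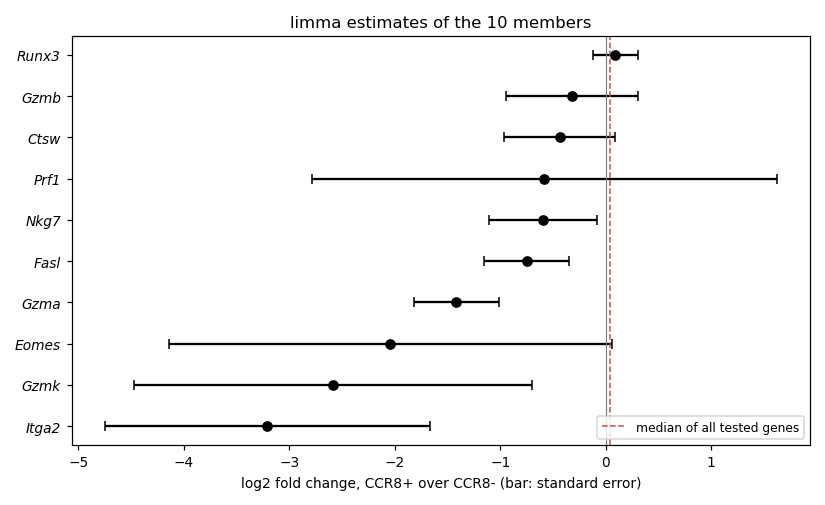
Log2 fold change of each of the 10 genes, CCR8+ over CCR8-, as estimated by limma, with its standard error as a bar and the median of all tested genes as a dashed line. The estimates run from -3.21 for *Itga2* to 0.09 for *Runx3*, and the genes with libraries at 0 have the widest bars.

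EOMES is a T-box transcription factor of memory CD8 T cells and NK cells that is also used to mark some Tr1-like cells. *Eomes* (chromosome 9, 118478212 to 118486132) was at 0, 57.3, 186 and 265 normalized counts in CCR8- replicates 1 to 4 and at 5.40, 19.3, 0 and 76.6 in CCR8+ replicates 1 to 4. It was above 100 normalized counts only in CCR8- replicates 3 and 4, and the highest CCR8+ library was below both of them. On the log2 scale, the fold change was -2.04 (standard error 2.10, limma adjusted p = 0.852, exact permutation p = 0.4) and rested on 523 reads in CCR8- and 116 in CCR8+ cells. Without CCR8+ replicate 3 it was -0.93, without CCR8- replicate 1 it was -3.83, and without both it was -2.72. Of its exonic bases 2.84% also lie in *Gm33460*, which is transcribed from the opposite strand, and the use of strand in counting is not given in the sources used here.

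RUNX3 is a runt-domain factor that promotes the cytotoxic program and represses *Cd4* in CD8 T cells. *Runx3* (chromosome 4, 135120652 to 135177990) was the most even of the 10 genes, with 1995, 1789.8, 1407 and 1973 normalized counts in CCR8- replicates 1 to 4 and 2029, 2093, 1532 and 1963 in CCR8+ replicates 1 to 4. The group means were 1791 ± 272 (SD, n = 4) and 1904 ± 254 (SD, n = 4). Its log2 fold change was 0.09 (standard error 0.21, limma adjusted p = 0.944, exact permutation p = 0.514), and its SD between libraries, 0.22 on the log2 scale, was the smallest of the 10.

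*Itga2* (chromosome 13, 114833081 to 114932100) encodes the integrin chain CD49b, which pairs with the beta1 chain to bind collagen and serves with LAG-3 as a surface marker of Tr1 cells. It had 293, 231, 190.3 and 107 normalized counts in CCR8- replicates 1 to 4, and 185, 61.3, 0 and 15.7 in CCR8+ replicates 1 to 4. All CCR8- libraries were above 100 normalized counts, and of the CCR8+ libraries only replicate 1 was. The CCR8+ library was lower in all 4 pairs, with log2 differences of -0.66, -1.90, -7.58 and -2.69. The means of 205 ± 77.9 (SD, n = 4) and 65.4 ± 83.7 (SD, n = 4) correspond to a level 3.13-fold lower in CCR8+ cells. On the log2 scale, the fold change of -3.21 (standard error 1.54) was larger than the SD between libraries (2.34), with a limma adjusted p of 0.838, an exact permutation p of 0.0571 and, within the pairs, of 0.125. It was -1.74 without CCR8+ replicate 3, -4.26 without CCR8+ replicate 1 and -1.54 without both CCR8- replicate 1 and CCR8+ replicate 3. On the recovered reads the log2 fold change was -1.66 by edgeR and -1.65 by DESeq2.

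**Figure D3:**
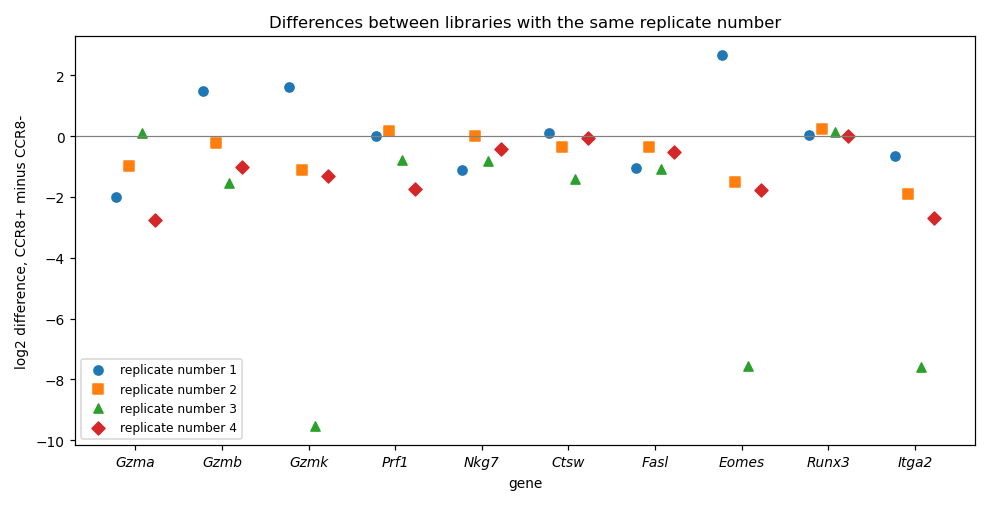
Log2 difference, CCR8+ minus CCR8-, of each gene between the 2 libraries with the same replicate number, on log2(normalized count + 1). Points below 0 are lower in the CCR8+ library, and the values of -9.54 for *Gzmk*, -7.58 for *Itga2* and -7.55 for *Eomes* come from pair 3, in which the CCR8+ library was at 0 for these genes.

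CCR8+ replicate 3 was the lowest of its group for 8 of the 10 genes, the exceptions being *Gzma*, for which it was the highest, and *Prf1*. The 10 genes together made up 0.0924% of its normalized counts, compared with between 0.335% and 0.360% in the other CCR8+ libraries and between 0.225% and 0.481% in the CCR8- libraries. Among the CCR8- libraries replicate 3 had the lowest share. CCR8- replicate 4 was the highest of all 8 libraries for *Gzmk*, *Prf1*, *Ctsw* and *Eomes*, and CCR8- replicate 1 for *Gzma*, *Nkg7*, *Fasl* and *Itga2*. The genes thus did not share one order of libraries.

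The likeness of the genes to each other was described by Pearson's r of their log2 values over the 8 libraries, which share depth and library quality within each library. Of the 45 pairs of genes 33 had r above 0 and 21 had r above 0.5, with a median of 0.39. *Nkg7* and *Fasl* were each other's closest match (r = 0.93, Spearman's rho = 0.83), as were *Gzmk* and *Ctsw* among the 10 genes (r = 0.90, rho = 0.93). *Eomes* was closest to *Gzmk* among them (r = 0.89, rho = 0.97), and over the 6 libraries other than CCR8- replicate 1 and CCR8+ replicate 3 its r was 0.96, while that of *Nkg7* with *Fasl* was 0.79 and that of *Gzmk* with *Ctsw* 0.73. *Prf1* and *Gzma* were least like the others, with a median r of -0.17 and -0.03, *Prf1* being close only to *Eomes* (r = 0.68) and *Gzma* having no r above 0.32. Each gene was also set against the 72 other genes of the 10 and of the lists described next. The best matches ran from r = 0.78 (*Gzma* with *Gzmf*) to r = 0.97 (*Ctsw* with *Serpinb6b*). Each is the highest of 72 values over 8 libraries, so the choice itself favors a high r. *Gzmk* was most like *Klrd1*, a receptor chain of NK and CD8 T cells (r = 0.95). *Eomes* was most like *Crtam* (r = 0.93), a receptor of cytotoxic lymphocytes, and *Itga2* most like *Satb1* (r = 0.96), a chromatin organizer of developing T cells. Over the same 6 libraries the values of *Gzmk*, *Eomes* and *Itga2* were 0.82, 0.87 and 0.79.

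The markers of other cytotoxic cells were read beside these genes, since CD8 T cells and NK cells express most of them strongly. The 2 CD8 T cell genes, *Cd8a* and *Cd8b1*, summed to between 980.1 and 3805 normalized counts in CCR8- libraries and to between 478 and 1227 in CCR8+ libraries. *Cd8a* was highest in CCR8- replicate 4 (1984 normalized counts), the library that was also highest for *Eomes*, *Gzmk*, *Prf1* and *Ctsw*, and it was lowest in CCR8- replicate 1 (90.6) and CCR8+ replicate 3 (130.01), in both of which *Eomes* was at 0. *Cd8b1* was not low in CCR8- replicate 1 (889 normalized counts), and that library was the highest of all 8 for *Gzma*, *Nkg7*, *Fasl* and *Itga2*. Of the NK cell markers, 5 of 7 were read, and their sum was between 125 and 403 normalized counts in CCR8- and between 0 and 73.1 in CCR8+ libraries. The granzyme gene *Gzmm* was all of this sum in CCR8- replicate 1 (198) and in CCR8+ replicates 1 and 2 (9.73 and 73.1). In CCR8- replicate 2 it was 101 of 125. The defining NK cell genes *Ncr1* and *Klrb1c* were at 0 in all 4 CCR8+ libraries and in CCR8- replicate 1. In CCR8- replicates 2, 3 and 4, *Klrb1c* had 24.3, 193 and 211 normalized counts and *Ncr1* had 0, 28.1 and 44.3. The sort took CD4+ cells, and the part of CD8 T cell or NK cell transcripts in the differences of the 10 genes was not tested. Macrophage and melanoma transcripts varied over wide ranges in both groups. Macrophage genes summed to between 422 and 67012.5 normalized counts in CCR8- and between 2941 and 31299.6 in CCR8+ libraries. Melanoma genes summed to between 105 and 17279 in CCR8- and between 232 and 21777 in CCR8+ libraries. The highest CCR8- sum of both was in CCR8- replicate 4, the library that was also highest for *Cd8a*. The 2 neutrophil and mast cell genes read, *S100a8* and *Cpa3*, summed to between 55.6 and 116 normalized counts in CCR8- and between 0 and 267 in CCR8+ libraries.

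**Figure D4:**
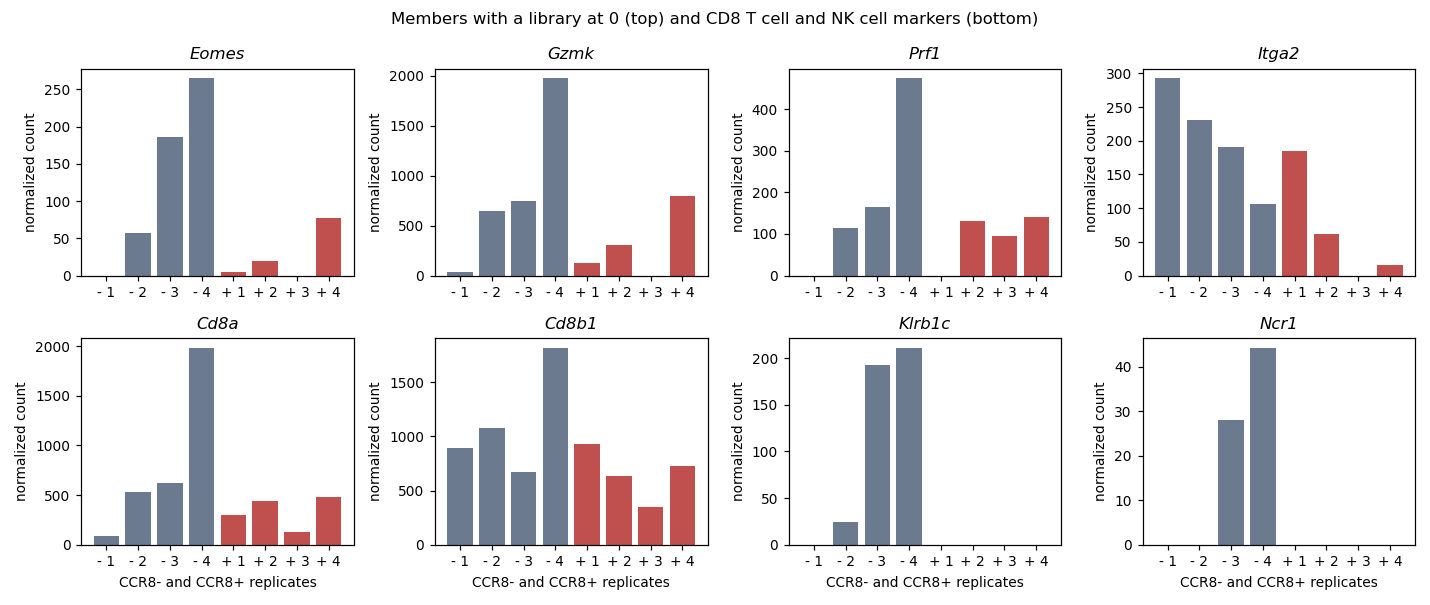
Normalized counts of the 4 genes with at least 1 library at 0 (top) and of the CD8 T cell markers *Cd8a* and *Cd8b1* and the NK cell markers *Klrb1c* and *Ncr1* (bottom) in each CCR8- (grey) and CCR8+ (red) replicate. CCR8- replicate 4 is the highest library in every panel except that of *Itga2*, where it is the lowest of the CCR8- libraries (107), and *Klrb1c* and *Ncr1* are at 0 in all 4 CCR8+ libraries.

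A list of 35 other cytotoxic effector and granule genes had 31 that were read, all of them tested. Limma called 0 of them, with 3 at an unadjusted p under 0.05 (2 higher and 1 lower in CCR8+ cells). At that threshold 2.80% of all tested genes were higher and 2.29% lower. The median log2 fold change of the list was -0.11 against 0.04 over all tested genes. The groups did not overlap for 3 of these genes, 1 higher and 2 lower, where 2.37% of all tested genes did so in the higher and 2.03% in the lower direction. *Srgn*, which encodes serglycin, the proteoglycan that packs granzymes in granules, had 25116, 36823, 21236 and 35096 normalized counts in CCR8- and 45514, 37546, 80938 and 45049 in CCR8+ replicates 1 to 4 (log2 fold change 0.79, standard error 0.33, limma adjusted p = 0.838). *Slamf7*, a receptor of cytotoxic lymphocytes and myeloid cells, was at 1178, 793, 733 and 1595 normalized counts in CCR8- and at 669, 652, 101 and 725 in CCR8+ replicates 1 to 4 (log2 fold change -1.27, standard error 0.59). The granzyme gene *Gzmm* was at between 73.7 and 198 normalized counts in CCR8- and between 0 and 73.1 in CCR8+ libraries, groups that parted by less than 1 read. *Stx11*, a syntaxin needed for granule release, averaged 2073 ± 408 normalized counts (SD, n = 4) without CCR8 and 5097 ± 3326 (SD, n = 4) with it, in groups that overlapped (log2 fold change 1.09, standard error 0.40). Granule genes outside the 10 were thus on both sides of 0.

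Of 19 other Tr1-associated genes, all of which were read and tested, limma called 0, with 6 higher and 1 lower in CCR8+ cells at an unadjusted p under 0.05, where 2.80% of all tested genes were higher and 2.29% lower. Their median log2 fold change was 0.24. The groups did not overlap for 3 genes, all higher in CCR8+ cells, where 2.37% of all tested genes did so in that direction. These were *Pdcd1* and *Ctla4*, which encode receptors that restrain activated T cells, and *Batf*, which encodes an AP-1 factor. *Ctla4* had 8108, 11164, 7662 and 11692 normalized counts in CCR8- and 21079, 15421, 43338 and 23473 in CCR8+ replicates 1 to 4 (log2 fold change 1.34, standard error 0.32, limma adjusted p = 0.8286). *Pdcd1* had between 4115 and 10260 normalized counts in CCR8- and between 10938.5 and 17499 in CCR8+ libraries (log2 fold change 1.02, standard error 0.29), and *Batf* had a log2 fold change of 0.61 (standard error 0.26). *Il10*, the cytokine of Tr1 cells, differed by 3.80 on the log2 scale (standard error 1.09, limma adjusted p = 0.838) with overlapping groups, and it was highest, at 18129.6 normalized counts, in CCR8+ replicate 3, the library in which *Gzmk*, *Eomes* and *Itga2* were at 0. *Il10* and *Itga2* thus differed between the groups with opposite signs. *Itgb1*, the partner chain of CD49b, which was chosen after its values were seen, differed by -0.94 on the log2 scale (standard error 0.41, limma adjusted p = 0.838).

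The last list held 14 partners, targets and opposing lineage factors of RUNX3 and EOMES, of which 13 were read and tested. Limma called 0 of them, with 4 at an unadjusted p under 0.05, all lower in CCR8+ cells, where 2.29% of all tested genes were lower. Their median log2 fold change was -0.67. Since the list mixes partners and targets with opposing factors, its median has no single expected direction and is no measure of likeness to the 10 genes. The groups did not overlap for 4 genes, all lower in CCR8+ cells, where 2.03% of all tested genes did so in that direction. *Itgae*, which encodes CD103, the integrin chain that binds E-cadherin, had 1178, 579.9, 511 and 251 normalized counts in CCR8- and 70.3, 175, 0 and 19.2 in CCR8+ replicates 1 to 4 (log2 fold change -4.60, standard error 1.44, limma adjusted p = 0.838). *Satb1* was at between 3599 and 6477 normalized counts in CCR8- and between 409 and 3098 in CCR8+ libraries (log2 fold change -1.72, standard error 0.54). *Runx2*, a RUNX factor of the same family as *Runx3*, had 1502, 1392, 1309.6 and 1547 normalized counts in CCR8- and 615, 1064, 828 and 1208 in CCR8+ replicates 1 to 4 (log2 fold change -0.67, standard error 0.26). *Cxcr3*, a chemokine receptor of Th1 and cytotoxic T cells, had between 2884 and 4337 normalized counts in CCR8- and 2420 (replicate 1), 2786 (replicate 2), 0 (replicate 3) and 2826 (replicate 4) in CCR8+ cells. Its log2 fold change of -3.26 (standard error 2.10) includes the library at 0.

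**Figure D5:**
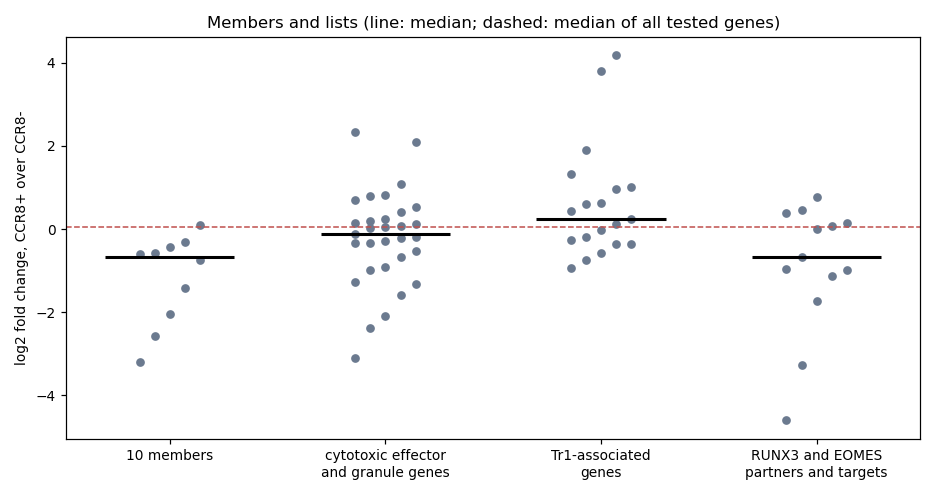
Log2 fold changes, CCR8+ over CCR8-, of the tested genes among the 10 genes and the 3 lists, with the median of each as a line and the median of all tested genes, 0.04, as a dashed line. The medians are -0.67 for the 10 genes, -0.11 for other cytotoxic genes, 0.24 for other Tr1-associated genes and -0.67 for the RUNX3 and EOMES list.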

How the data were processed

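Bulk RNA-Seq of CCR8+ and CCR8- Tconv cells was analyzed, 4 libraries each, assigned by their labels. By their methods, the authors used Cutadapt for trimming and hisat2 for alignment (genome NCBIM37), counted reads that mapped uniquely and normalized them to library size and intergenic reads. HTSeq is named in the submitters' processing notes. The deposited values are a normalized signal per gene, named FPM. In each library the smallest value above 0 was taken as the value of 1 read. In every library 100% of the values were whole multiples of it (within 0.05 reads), so reads were recovered. How the 11233 genes were chosen is not given in the sources used here. No 2 libraries held identical values, and 0 columns were left unused.

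Differences were tested with limma 3.58.1 (R 4.3.3) on log2(value + 1) with an intensity trend. The 11032 genes whose mean reached 10 were tested, and p values were adjusted by Benjamini-Hochberg. EdgeR 4.0.16 and DESeq2 1.42.0 were run on the recovered reads. Exact permutation tests were two-sided, were run for each of the 10 genes and are not adjusted over them. The code was tested on simulated counts in which 200 genes changed by a log2 value of 3 up or down. The changed genes had a mean of at least 100, which *Eomes* did not reach, and zeros particular to single libraries were not simulated. Of the 10 genes only *Itga2* had an estimate beyond 3, so the shares recovered need not hold for them. With the spread of these data, limma recovered 126 of the 200 with 5 false calls. DESeq2 recovered 160 with 67 false calls, and edgeR 123 with 6. A gene that limma did not call can thus still differ. Gene positions and exonic lengths are from GENCODE M21 (GRCm38), a later build than that of the alignment. Exact stretches of 50 bases of the 10 genes' transcripts occurred in other genes only for *Eomes* (0.386% of stretches) and *Runx3* (1.11%). Named beyond the 10 genes were those of 3 lists whose groups did not overlap, filled up to 4 a list by the smallest p, and genes of marker lists. The genes, lists and tests were chosen with earlier results of these data known. Alternatives were other scalings, pseudocounts, filters and tests, the replicate block and left-out libraries. One marker list is not reported here.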

Additional observations from a re-analysis of the deposited data

Results flagged for a closer look

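Dixon's test was run on 44 groups of 4 libraries, over the 10 genes and the 12 list genes named. In 4 groups the highest or the lowest library was far from the other 3. The test flags about 1 group in 20 by chance when values are normally distributed and genes are not picked. Here it was run on untransformed counts and the list genes were picked by their values, so that rate is no measure for these flags. All 4 flagged values were in CCR8+ replicate 3. *Fasl* was at 1178 normalized counts there, against 3162 to 3556 in the other CCR8+ libraries. *Slamf7* was at 101 against 652 to 725. *Cxcr3* was at 0 against 2420 to 2826. *Il10* was at 18129.6 against 1265 to 3440. What set this library apart was not tested.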

How the results depend on the processing

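The choice of test set how many genes were called. Limma called 0 of 11032 genes, limma without a trend 2, edgeR 0, DESeq2 26 (among the 2259 genes with an adjusted p) and DESeq2 with the replicate block 124. The cause was not tested. No alternative run called any of the 10 genes (lowest adjusted p 0.0985, *Fasl* by DESeq2 with the replicate block), and with libraries left out limma called from 0 to 0 genes in all. DESeq2 without the block gave no adjusted p to *Gzmk*, *Prf1*, *Eomes* and *Itga2*, and *Eomes* was not tested under a minimum mean of 100.

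With the replicate number as a replicate block, limma called 1 gene, none of the 10. Same-numbered libraries deviated together by r = 0.0682, 0.138, 0.108 and 0.217, and 7 of the 8 libraries correlated best with their own number, as a hint from the data and not the design.

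The median log2 fold change of the 10 genes, -0.67, lay from -1.04 to -0.39 with libraries left out. The number of them whose groups did not overlap was 1 (*Gzma*) with the same total per library and with quantile normalization. It was also 1 (*Gzma*) without both CCR8- replicate 1 and CCR8+ replicate 3. With single libraries or numbers left out it was from 0 to 2 (*Gzma* and *Fasl*, or *Itga2*). The share of all tested genes was not computed under these settings, and smaller groups part more easily, so nothing is read from these counts.

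The sign turned for 5 genes. For *Gzmb* the log2 fold change was 0.0015 by DESeq2 and from -0.92 to 0.34 with libraries left out, for *Prf1* from -2.51 to 1.15, for *Ctsw* from -0.86 to 0.066 and for *Runx3* from -0.020 to 0.19. Without both CCR8- replicate 1 and CCR8+ replicate 3 it was 0.18 for *Gzmb*, 0.12 for *Nkg7*, -2.98 for *Prf1* and 0.25 for *Runx3*, and *Nkg7* was from -0.98 to -0.13 with single ones left out. *Gzma*, *Gzmk*, *Fasl*, *Eomes* and *Itga2* stayed negative in all alternatives that gave them a value. The fewest reads stood behind *Eomes*, *Itga2* and *Prf1*.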
